A study of Mus musculus with 12 samples.

Results

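Livers of fasted mice were compared with livers of fed mice after injection of an adenovirus that expresses green fluorescent protein (Adeno-GFP). The comparison used 6 of the 12 arrays of the series, chosen by their labels: 3 from Adeno-GFP fasted livers and 3 from Adeno-GFP fed livers. All 22180 genes that a probe set names alone were tested. The animals were male mice, 2 months old, whose strain the labels give both as C57Bl/6N and as C57BL/6 Trp53tm1Brn/J, and every mouse of the series, whichever virus it received, carried floxed p53 (p53 fl/fl). The virus entered through the tail vein, and 3 days later food was withdrawn for 24 h (fasted) or left freely available as standard chow (fed). Adeno-GFP carries no recombinase to cut the floxed alleles. Its mice serve as controls for an adenovirus expressing Cre (Adeno-Cre), given to the mice of the other 6 arrays (3 fasted, 3 fed). All livers had therefore met an adenovirus, and livers of mice without an injection were not analysed here. The labels do not give the hour of sacrifice or say whether RNA of several animals was pooled. The p-values therefore rest only on the spread between arrays, which was estimated over all 12 arrays of the series.

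When food is withdrawn, insulin falls and glucagon and glucocorticoids rise. The liver first spends its glycogen, then makes glucose from amino acids, lactate and glycerol, and burns fatty acids released by fat tissue, part of which leave as ketone bodies. The nuclear receptor PPARA, which binds fatty acids, switches on genes of fatty acid oxidation, whereas the transcription factors SREBP-1c and ChREBP, active in the fed liver, drive fatty acid synthesis, and SREBP-2 drives cholesterol synthesis.

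Values are deposited log2 expression levels, on which a difference of 1 is a doubling. Each gene was read from its brightest probe set. A change is the mean of the 3 fasted arrays minus the mean of the 3 fed arrays with its standard error (SE). The SE and p of each gene draw on its spread over all 12 arrays, so they can differ from what the 6 printed values show. A gene was called when limma's p adjusted over all genes was under 0.05. Array medians ran from 6.26 to 6.33 over the 12 arrays, and levels near or under these are not shown to be above background. Arrays of the same group correlated at 0.992 to 0.993 (fasted) and 0.993 to 0.994 (fed) over all genes, and fasted with fed arrays at 0.988 to 0.990. Of the arrays used only for the shared estimate of spread, Adeno-Cre fasted replicate 3 stood somewhat apart, and without it the number of called genes was 720, against 682 with it. The label liver was checked on hepatocyte markers, of which albumin (Alb) had log2 levels of 13.22, 13.30 and 13.28 in fasted livers, against 13.33, 13.30 and 13.26 in fed livers. Trp53, which encodes p53, was not analysed here.

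With fasting, 682 genes were called (3.07% of those tested), 267 higher (1.2%) and 415 lower (1.87%), and the median change over all genes was 0.01. Of these, 29 genes rose (0.131%) and 68 fell (0.307%) by at least 2-fold. The groups of 3 arrays did not overlap in 4929 genes (22.2%), and 3698 (16.7%) had an unadjusted p under 0.05. The count of calls was 412, 441 and 379 without fasted arrays 1, 2 and 3, and 308, 275 and 487 without fed arrays 1, 2 and 3. Genes of fatty acid oxidation, PPARA targets and enzymes that break down amino acids made up the lists with the largest share of members that rose, and cholesterol synthesis, lipogenesis, growth hormone targets and the cell cycle those with the largest share that fell. Counts of list members below are to be read beside the 1.2% of all genes higher and 1.87% lower.

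**Figure D1:**
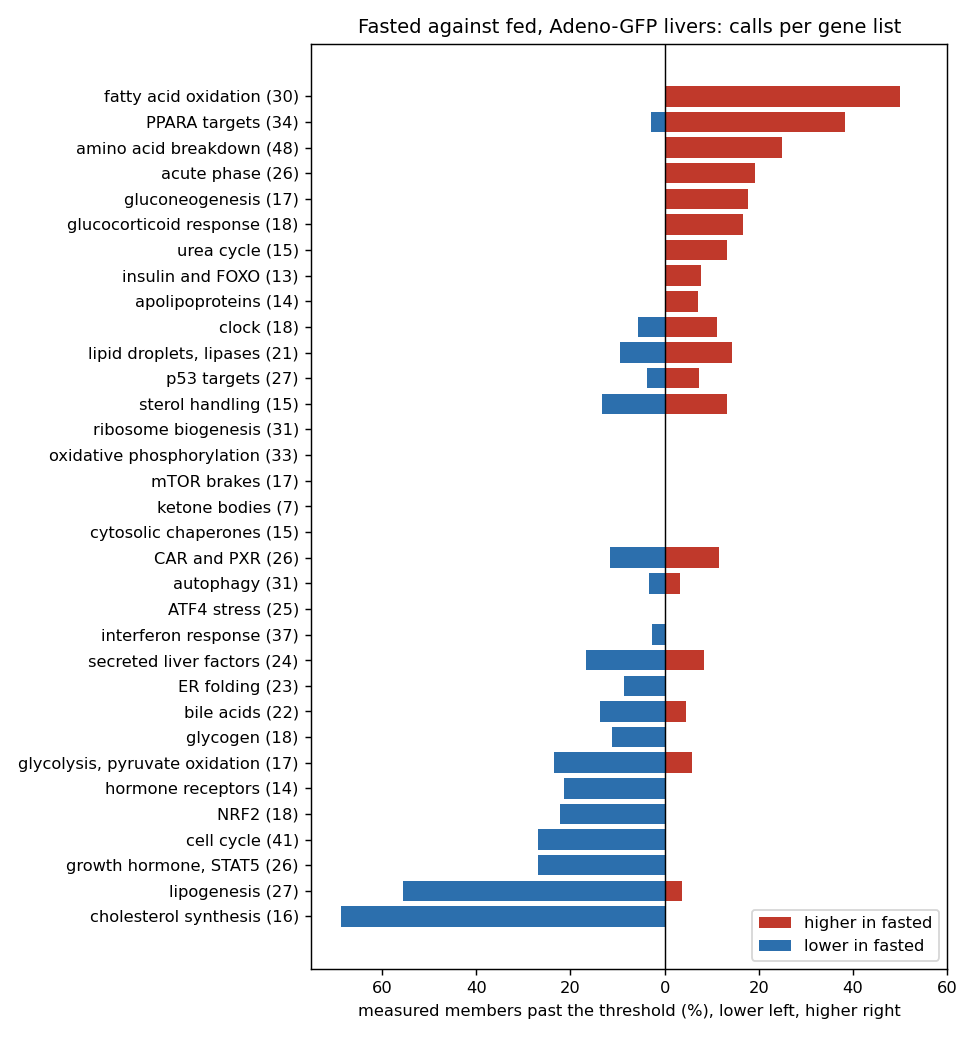
Share of the measured members of each of 33 gene lists (number measured in brackets) that were higher (red, to the right) or lower (blue, to the left) in fasted than in fed Adeno-GFP livers at an adjusted p under 0.05. Fatty acid oxidation stands at the top with 15 of 30 members higher and cholesterol synthesis at the bottom with 11 of 16 lower, beside 1.2% of all genes higher and 1.87% lower.

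Markers of the cell types of liver were read first, since a bulk sample cannot tell fewer cells of a type from less RNA per cell. Of 14 hepatocyte markers 2 rose and 0 fell, with a median change of 0.02 and mean levels of 12.11 to 12.19 per fasted array and 12.05 to 12.08 per fed array. The 2 were Hnf4a, a master regulator of hepatocyte identity, at 10.47, 10.27 and 10.06 in fasted livers, against 9.69, 9.67 and 9.63 in fed livers (0.60, adjusted p = 0.0139), and Ttpa, the vitamin E transfer protein (0.35, adjusted p = 0.0228). Hnf4a lost its call without fed array 2 and Ttpa without fasted arrays 1 or 2 or fed arrays 1, 2 or 3.

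Sinusoidal endothelial markers had 0 calls in limma among 18 and 11 at an unadjusted p under 0.05, against 16.7% of all genes. Negative changes were found in 15, and the median was -0.29. Their mean level was 8.01 to 8.31 in fasted arrays, below the 8.36 to 8.41 of fed arrays. Among 19 stellate cell markers, Lrat, which stores vitamin A as its ester, fell by 0.76 (SE 0.11, adjusted p = 0.00432) and the collagen gene Col1a2 fell by 0.55 (adjusted p = 0.0265). The receptor gene Pdgfra rose by 0.42 (adjusted p = 0.0341). Lrat kept its call without each of the 6 arrays in turn, Col1a2 lost it without fasted arrays 2 or 3 or fed arrays 1, 2 or 3, and Pdgfra without fasted arrays 1, 2 or 3 or fed arrays 2 or 3. The other probe set of Col1a2 changed by -0.03 (adjusted p = 0.934). The lists for Kupffer cells (16 measured), T and NK cells (16), B cells (9), neutrophils (11), cholangiocytes (8), adipocytes (8), pancreas (8) and erythroid cells (3) had 0 calls in limma, and at an unadjusted p under 0.05 they had 2, 1, 2, 1, 0, 0, 1 and 2, beside 16.7% of all genes. Their medians were -0.07, 0.01, -0.06, 0.18, 0.10, -0.01, 0.01 and 0.29.

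Fatty acid oxidation rose. Of 30 measured genes of the pathway 15 were higher and 0 lower in fasted livers, against 1.2% higher among all genes, with a median change of 0.34 and positive changes in 26. At the entry to mitochondria, Cpt1a, which makes the acylcarnitines that cross the membrane and sets the pace of the pathway, had log2 levels of 11.59, 11.45 and 11.50 in fasted livers, against 10.99, 11.04 and 11.14 in fed livers. The groups did not overlap, and the change was 0.46 (SE 0.07, adjusted p = 0.0068). The carnitine carrier Slc25a20 had 10.54, 10.63 and 10.70 in fasted livers, against 10.06, 10.13 and 10.23 in fed livers, and rose by 0.48 (SE 0.09, adjusted p = 0.016). Cpt2, which returns the acyl group to coenzyme A inside, had 10.82, 10.85 and 10.75 in fasted livers, against 10.44, 10.29 and 10.41 in fed livers, and rose by 0.43 (SE 0.08, adjusted p = 0.0188). All 3 steps of the carnitine shuttle were thus higher on every fasted array than on any fed array. Separate groups, in either direction, were found in 22.2% of all genes.

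Within the mitochondrial spiral, Acadm, the medium-chain acyl-CoA dehydrogenase, had 12.16, 12.17 and 12.10 in fasted livers, against 11.61, 11.70 and 11.51 in fed livers, a rise of 0.53 (SE 0.07, adjusted p = 0.00338). Hadhb, a subunit of the trifunctional protein, had 8.61, 8.62 and 8.62 in fasted livers, against 8.10, 8.06 and 7.79 in fed livers, with an SD of 0.01 over the fasted arrays, a rise of 0.64 (SE 0.11, adjusted p = 0.0115). Its partner Hadha rose by 0.35 and the long-chain dehydrogenase gene Acadl by 0.31, and the isomerase genes Eci1 and Eci2, which handle double bonds, rose by 0.53 and 0.46. In peroxisomes, the bifunctional enzyme gene Ehhadh had 12.15, 12.49 and 11.67 in fasted livers, against 11.27, 10.70 and 10.88 in fed livers, a 2.23-fold rise (change 1.16, SE 0.19, adjusted p = 0.0068), and fasted array 3 was the lowest of its group. Crat, which moves acetyl groups onto carnitine, had 8.33, 8.44 and 8.29 in fasted livers, against 7.49, 7.73 and 7.64 in fed livers, and rose by 0.74 (SE 0.10, adjusted p = 0.00205). The smaller rises of Decr2, Slc27a1 (dim in fed livers), Acaa1a and Crot were 0.35, 0.56, 0.52 and 0.34.

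Cpt1a, Acadm, Hadhb, Ehhadh and Crat kept their calls without each of the 6 arrays in turn. Slc25a20 lost its call without fasted array 3 or fed arrays 1 or 2, Cpt2 and Eci1 without fasted arrays 1 or 2 or fed array 2, and Eci2 without fasted array 2 or fed arrays 1 or 2. Decr2 and Hadha lost it without fasted arrays 1 or 2 or fed arrays 1, 2 or 3. Acaa1a lost it without fasted arrays 1 or 2 or fed arrays 1, 2 or 3, Crot without fasted arrays 1, 2 or 3 or fed arrays 2 or 3, Slc27a1 without fasted arrays 1, 2 or 3 or fed arrays 1 or 2, and Acadl without any 1 of the 6 arrays. The number of oxidation genes that rose was 7, 6 and 11 without fasted arrays 1, 2 and 3, and 8, 5 and 10 without fed arrays 1, 2 and 3.

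Of 34 measured PPARA targets 13 rose and 1 fell (median 0.27), against 1.2% and 1.87% of all genes. Cpt1a, Ehhadh and Slc25a20 are also on the oxidation list. Cyp4a14, a microsomal hydroxylase that starts fatty acid oxidation from the far end, had log2 levels of 12.98, 13.14 and 13.04 in fasted livers, against 11.66, 11.28 and 10.90 in fed livers. It rose 3.41-fold (change 1.77, SE 0.15, adjusted p = 0.000117), and its fed arrays were spread over 0.38 (SD) and its fasted arrays over 0.08. The related Cyp4a31 had 11.05, 11.06 and 10.56 in fasted livers, against 9.20, 8.69 and 8.32 in fed livers, and rose 4.45-fold (change 2.15, SE 0.22, adjusted p = 0.000463). Retsat, retinol saturase, had 11.65, 11.80 and 11.67 in fasted livers, against 10.65, 10.41 and 10.41 in fed livers, a 2.33-fold rise (change 1.22, SE 0.09, adjusted p = 3.31e-05). Among thioesterases that free fatty acids from coenzyme A, Acot1 had 10.59, 11.24 and 10.54 in fasted livers, against 9.63, 9.81 and 9.54 in fed livers, and rose by 1.13 (SE 0.16, adjusted p = 0.00349). Acot2 had 7.38, 7.43 and 7.29 in fasted livers, against 6.56, 6.61 and 6.89 in fed livers, and rose by 0.68 (SE 0.11, adjusted p = 0.00561). How far probes of near-identical family members bind each other's RNA was not tested.

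The member that fell was Nudt7, a peroxisomal enzyme that cleaves coenzyme A, at 10.83, 10.57 and 11.07 in fasted livers, against 11.98, 11.71 and 11.95 in fed livers (change -1.06, SE 0.14, adjusted p = 0.00237). Pdk4, the kinase that shuts pyruvate dehydrogenase and so spares glucose, had 8.18, 9.02 and 8.73 in fasted livers, against 7.21, 7.78 and 7.30 in fed livers, and rose 2.32-fold (change 1.21, SE 0.24, adjusted p = 0.0188). Smaller rises were those of Plin2, a coat protein of lipid droplets (0.38), Hsdl2 (0.45), Vnn1, which makes cysteamine from pantetheine (0.90), and the liver transcription factor gene Creb3l3 (0.35). Several textbook targets missed the threshold in the fit that pools the spread of all 12 arrays. Angptl4, a secreted inhibitor of lipoprotein lipase, had 10.14, 10.25 and 10.10 in fasted livers, against 9.09, 9.54 and 9.38 in fed livers, groups that did not overlap, and a change of 0.83 (SE 0.24, adjusted p = 0.0965). Fgf21, the fasting hormone of liver, had 6.80, 6.81 and 6.81 in fasted livers, against 6.56, 6.46 and 6.61 in fed livers, a change of 0.26 (SE 0.11, adjusted p = 0.25), and Ppara itself changed by -0.09 (adjusted p = 0.76).

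Cyp4a14, Cyp4a31, Retsat, Acot1, Acot2 and Nudt7 kept their calls without each array in turn. Pdk4 lost its call without fasted arrays 2 or 3 or fed arrays 1 or 3. Hsdl2 lost it without fasted array 2 or fed arrays 1, 2 or 3, Vnn1 without fasted arrays 2 or 3 or fed arrays 1, 2 or 3, and Plin2 and Creb3l3 without any 1 of the 6 arrays. The number of targets that rose was 11, 8 and 8 without fasted arrays 1, 2 and 3, and 7, 8 and 8 without fed arrays 1, 2 and 3. Of 7 measured genes of ketone body metabolism 0 were called in limma, and 3 had an unadjusted p under 0.05 (median 0.08), beside 16.7% of all genes. Acat1, the thiolase that makes acetoacetyl-CoA, changed by 0.22 (adjusted p = 0.16) and Bdh1, which interconverts the ketone bodies, by 0.06 (adjusted p = 0.866). Cyp4a10 and Sds were not analysed here.

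Lipid droplet and lipase genes moved in both directions, with 3 of 21 higher and 2 lower (median 0.08). Pnpla2, the first lipase of triglyceride breakdown, had 9.21, 9.06 and 8.96 in fasted livers, against 8.60, 8.59 and 8.62 in fed livers, and rose by 0.47 (SE 0.10, adjusted p = 0.0293), and the coat protein gene Plin4 rose by 0.48 (adjusted p = 0.0359). The esterase genes Ces1g and Aadac fell by 0.72 (adjusted p = 0.0188) and by 0.29 (adjusted p = 0.0432). Pnpla2 and Plin4 lost their calls without fasted arrays 1 or 2 or fed arrays 1, 2 or 3 and without fasted arrays 1, 2 or 3 or fed arrays 1 or 3. Ces1g and Aadac lost theirs without fasted arrays 1 or 3 or fed arrays 1 or 2 and without fasted arrays 1 or 3 or fed arrays 1, 2 or 3. The list's higher members numbered 0, 0 and 1 without fasted arrays 1, 2 and 3, and 0, 1 and 0 without fed arrays 1, 2 and 3. Its lower members numbered 0, 2 and 0 without fasted arrays 1, 2 and 3, and 0, 0 and 1 without fed arrays 1, 2 and 3.

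Lipogenesis fell. Of 27 measured genes 15 were lower, against 1.87% of all genes, and 1 was higher, with a median change of -0.43. Srebf1, which encodes SREBP-1, had log2 levels of 7.03, 6.80 and 7.09 in fasted livers, against 7.81, 7.98 and 8.16 in fed livers, and fell 2.02-fold (change -1.01, SE 0.10, adjusted p = 0.000335). Mlxipl, which encodes the glucose-sensing factor ChREBP, had 10.01, 10.31 and 10.08 in fasted livers, against 10.62, 10.49 and 10.58 in fed livers, a smaller fall of 0.43 (SE 0.09, adjusted p = 0.0284). Both groups of arrays were separate for both regulators, as they were for 22.2% of all genes.

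Enzymes fell at steps from citrate to unsaturated fat. Slc25a1, which carries citrate out of mitochondria, fell by 0.41 (SE 0.07, adjusted p = 0.00984). Acly, which splits citrate to acetyl-CoA, had 8.81, 8.64 and 8.85 in fasted livers, against 9.59, 9.75 and 10.06 in fed livers, and fell by 1.03 (SE 0.13, adjusted p = 0.00189). Acss2, which makes acetyl-CoA from acetate, fell by 0.66 (SE 0.12, adjusted p = 0.011). Acaca, the carboxylase that commits carbon to fat, had 8.64, 8.89 and 8.89 in fasted livers, against 9.57, 9.85 and 9.98 in fed livers, a 1.99-fold fall (change -0.99, SE 0.15, adjusted p = 0.00532). Fasn, fatty acid synthase, had 7.60, 7.99 and 7.84 in fasted livers, against 9.10, 9.51 and 9.78 in fed livers, and with a 3.15-fold fall (change -1.65, SE 0.15, adjusted p = 0.000177) it changed most among the called enzymes of the list. Elovl6, which lengthens palmitate, had 9.27, 9.73 and 9.70 in fasted livers, against 10.72, 11.05 and 11.25 in fed livers (2.7-fold lower, change -1.43, SE 0.21, adjusted p = 0.00395). Scd1, the desaturase, had 11.58, 11.93 and 11.47 in fasted livers, against 12.72, 12.76 and 12.77 in fed livers, and fell by 1.09 (SE 0.12, adjusted p = 0.000799).

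Me1, the malic enzyme, which yields NADPH, had 9.94, 10.04 and 10.21 in fasted livers, against 11.16, 11.13 and 11.24 in fed livers, and fell 2.17-fold (change -1.12, SE 0.10, adjusted p = 0.000149). In the pentose phosphate path Pgd fell by 0.55 (SE 0.10, adjusted p = 0.012) and Taldo1 fell by 0.48 (SE 0.10, adjusted p = 0.0188). Thrsp, a small nuclear and cytosolic protein that follows carbohydrate feeding, fell by 1.11 (SE 0.19, adjusted p = 0.00904). Angptl8, a secreted protein of the fed state, had 8.05, 8.34 and 7.85 in fasted livers, against 9.76, 8.69 and 9.61 in fed livers, with fed array 2 well under the other fed arrays (change -1.27, SE 0.29, adjusted p = 0.0359). Fads1, a desaturase of polyunsaturated fat, fell by 0.41. The member that rose was Dgat1, which adds the last fatty acid to triglyceride, by 0.44 (SE 0.09, adjusted p = 0.023). Dgat2, which catalyses the same reaction, changed by -0.23 (adjusted p = 0.211) and Pnpla3, a lipase-like protein of droplets, by 0.05 (adjusted p = 0.926).

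Srebf1, Slc25a1, Acly, Acaca, Fasn, Elovl6, Scd1, Me1, Pgd and Thrsp kept their calls without each array in turn. Acss2 lost its call without fed array 1, Taldo1 and Fads1 without fasted arrays 2 or 3 or fed arrays 2 or 3. Mlxipl and Dgat1 lost theirs without fasted arrays 1 or 3 or fed arrays 1, 2 or 3, and Angptl8 without fasted arrays 1, 2 or 3 or fed arrays 1 or 3. The lower members numbered 11 to 13 over these 6 fits, and Dgat1 was called in 1 of them.

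**Figure D2:**
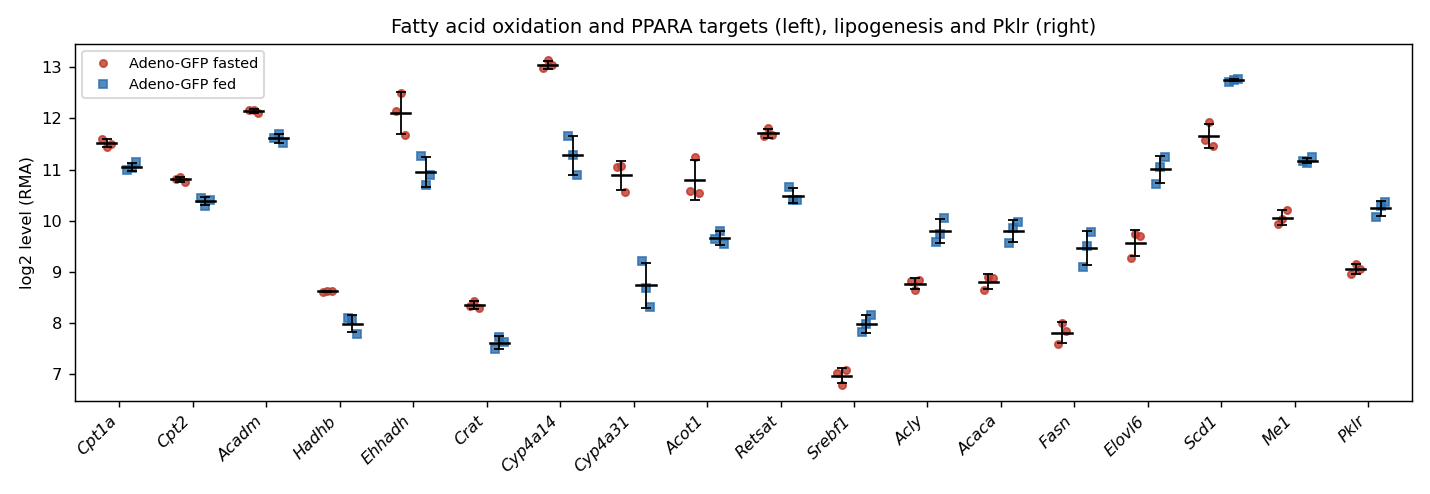
Log2 levels of 10 genes of fatty acid oxidation and PPARA targets (Cpt1a to Retsat) and of lipogenesis with Pklr (Srebf1 to Pklr) on each fasted (red circles, left of each pair) and fed (blue squares) Adeno-GFP array, with the mean and SD of 3 arrays in black. The genes shown were picked from those called in this comparison. Fasted and fed arrays do not overlap in any of them, nor in 22.2% of all genes. Changes run from Cyp4a31 (2.15 higher in fasted livers) to Fasn (a change of -1.65).

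Of 17 measured genes of glycolysis and pyruvate oxidation 4 fell and 1 rose, with a median of -0.05. Pklr, the pyruvate kinase of liver, had log2 levels of 8.95, 9.16 and 9.05 in fasted livers, against 10.07, 10.28 and 10.37 in fed livers, a 2.28-fold fall (change -1.19, SE 0.11, adjusted p = 0.00015) that held without each array in turn. Khk, which traps fructose, fell by 0.57 (adjusted p = 0.0282) and Pdhb, a subunit of pyruvate dehydrogenase, fell by 0.36 (adjusted p = 0.0265), and both lost their calls whichever array was left out. Pdk1, another kinase of that complex, fell by 0.52 (adjusted p = 0.0323) while Pdk4 rose, as given above. Pdk1 lost its call without fasted arrays 1 or 3 or fed arrays 1, 2 or 3; its other probe set changed by -0.75 (adjusted p = 0.113). The lower members numbered 1, 2 and 1 without fasted arrays 1, 2 and 3, and 1, 1 and 1 without fed arrays 1, 2 and 3.

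Among 18 glycogen genes 2 fell and 0 rose (median -0.07). Pygl, the phosphorylase that releases glucose from glycogen in liver, had 11.35, 11.31 and 11.44 in fasted livers, against 11.97, 11.98 and 12.00 in fed livers, and fell by 0.62 (SE 0.07, adjusted p = 0.000872). Gbe1, which makes the branches of glycogen, had 11.39, 11.44 and 11.48 in fasted livers, against 11.88, 12.01 and 11.89 in fed livers, and fell by 0.50 (SE 0.07, adjusted p = 0.00341). Both kept their calls without each array in turn, so an enzyme of breakdown and an enzyme of synthesis were each lower in fasted livers. Gys2, the liver glycogen synthase, had overlapping groups and a change of -0.08 (adjusted p = 0.783).

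Of 17 gluconeogenesis genes 3 rose and 0 fell, with a median change of 0.22 and positive changes in 14. Ppargc1a, the coactivator that fasting hormones induce in liver, had log2 levels of 10.15, 9.98 and 10.18 in fasted livers, against 9.34, 9.33 and 9.26 in fed livers, and rose by 0.80 (SE 0.17, adjusted p = 0.0272). Creb3l3 had 9.38, 9.28 and 9.27 in fasted livers, against 8.93, 9.02 and 8.95 in fed livers, and rose by 0.35 (SE 0.08, adjusted p = 0.029). Gpt, alanine aminotransferase, had 9.79, 9.77 and 9.64 in fasted livers, against 9.27, 9.16 and 9.42 in fed livers, and rose by 0.45 (SE 0.10, adjusted p = 0.0384). In all 3 genes every fasted array was above every fed array, while 22.2% of all genes had separate groups in either direction. Pck1, the enzyme that makes phosphoenolpyruvate, also had separate groups, with 12.64, 12.67 and 12.68 in fasted livers, against 12.08, 12.36 and 12.39 in fed livers, but its change of 0.39 (SE 0.17, adjusted p = 0.262) missed the threshold. G6pc, which releases free glucose, had overlapping groups, with 11.47, 11.47 and 11.85 in fasted livers, against 11.74, 11.75 and 12.03 in fed livers, and a change of -0.24 (SE 0.29, adjusted p = 0.751). Fbp1 changed by -0.02 (adjusted p = 0.94), Pcx, pyruvate carboxylase, by 0.35 (adjusted p = 0.144), and Got1, aspartate aminotransferase, by 0.60 (adjusted p = 0.113). Ppargc1a and Creb3l3 lost their calls whichever array was left out and Gpt without fasted arrays 1, 2 or 3 or fed arrays 1 or 2. The list's higher members numbered 0, 1 and 0 without fasted arrays 1, 2 and 3, and 0, 0 and 1 without fed arrays 1, 2 and 3.

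Of 48 measured genes of amino acid breakdown 12 were higher and 0 lower, against 1.2% and 1.87% of all genes. The median change was 0.26, and 42 had positive changes. Aass, the first enzyme of lysine breakdown, had log2 levels of 12.42, 12.40 and 12.44 in fasted livers, against 11.65, 11.60 and 11.84 in fed livers, and rose by 0.72 (SE 0.08, adjusted p = 0.000964). Oat, which turns ornithine to glutamate semialdehyde, had 12.31, 12.11 and 12.16 in fasted livers, against 11.41, 11.25 and 11.64 in fed livers, and rose by 0.76 (SE 0.11, adjusted p = 0.00362). Gldc, of the glycine cleavage system, had 10.43, 9.90 and 10.13 in fasted livers, against 9.17, 9.36 and 9.40 in fed livers, a 1.79-fold rise (change 0.84, SE 0.13, adjusted p = 0.00524). These 3 genes kept their calls without each array in turn.

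Methionine and its sulphur path were represented by 4 of the 12. Mat1a, which makes S-adenosylmethionine, had 13.32, 13.31 and 13.25 in fasted livers, against 12.82, 12.96 and 12.99 in fed livers (0.37 higher). Ahcy, which clears its product, had 10.63, 10.88 and 10.71 in fasted livers, against 9.99, 10.01 and 10.25 in fed livers (a rise of 0.66, SE 0.13, adjusted p = 0.0206), its other probe set changing by 0.30 (adjusted p = 0.251). Bhmt2, a methyltransferase that remakes methionine, rose by 0.40, and Cth, which makes cysteine, by 0.65 (SE 0.13, adjusted p = 0.018). Hpd of tyrosine breakdown rose by 0.44 (SE 0.09, adjusted p = 0.0175), Ftcd of histidine breakdown by 0.41 (SE 0.08, adjusted p = 0.0193), Afmid of tryptophan breakdown by 0.42, and Bcat2, an aminotransferase of branched-chain amino acids, by 0.39. Hal, the first enzyme of histidine breakdown, had separate groups and a change of 0.64 (SE 0.16, adjusted p = 0.0544). Tat, of tyrosine breakdown, had 12.57, 12.42 and 12.56 in fasted livers, against 12.03, 12.34 and 12.31 in fed livers, and a change of 0.29 (SE 0.23, adjusted p = 0.598). Hpd and Ftcd lost their calls without fasted array 1 or fed arrays 1 or 2, Cth without fasted arrays 1 or 3 or fed array 2, and Ahcy without fasted arrays 2 or 3 or fed arrays 1 or 2. Mat1a lost it without fasted arrays 1, 2 or 3 or fed arrays 1 or 2, Bhmt2 without fasted arrays 1 or 3 or fed arrays 1 or 2, Afmid without any 1 of the 6 arrays, and Bcat2 without fasted arrays 1 or 2 or fed arrays 1, 2 or 3. The higher members numbered 4, 8 and 6 without fasted arrays 1, 2 and 3, and 4, 3 and 10 without fed arrays 1, 2 and 3.

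Of 15 genes of the urea cycle and its transporters 2 rose and 0 fell (median 0.18). Asl, which splits argininosuccinate, had 12.08, 11.79 and 11.88 in fasted livers, against 11.12, 11.13 and 11.45 in fed livers, and rose by 0.68 (SE 0.15, adjusted p = 0.034). The ornithine carrier Slc25a15 had 11.35, 10.79 and 11.15 in fasted livers, against 10.62, 10.50 and 10.67 in fed livers, and rose by 0.50 (SE 0.12, adjusted p = 0.0464). Arg1, which releases urea, changed by 0.30 (adjusted p = 0.0521), with separate groups, and Cps1, the entry enzyme, by 0.18 (adjusted p = 0.212). Asl lost its call without fasted arrays 1, 2 or 3 or fed arrays 1 or 2 and Slc25a15 without fasted arrays 1 or 3 or fed arrays 1, 2 or 3. The higher members numbered 0, 2 and 0 without fasted arrays 1, 2 and 3, and 0, 0 and 1 without fed arrays 1, 2 and 3.

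Cholesterol synthesis was the list with the largest share of calls. Of 16 measured genes 11 fell and 0 rose, all 16 changes were negative, and the median was -0.66, against 0.01 for all genes. Hmgcs1, which makes HMG-CoA in the cytosol, had log2 levels of 10.26, 9.99 and 10.17 in fasted livers, against 11.02, 11.00 and 11.08 in fed livers, and fell by 0.89 (SE 0.14, adjusted p = 0.00524). Pmvk, a kinase of the mevalonate path, fell by 0.65 (SE 0.11, adjusted p = 0.0108). Fdps, which makes farnesyl diphosphate, had 9.33, 9.23 and 9.19 in fasted livers, against 10.98, 10.98 and 11.23 in fed livers, a 3.52-fold fall (change -1.82, SE 0.15, adjusted p = 6.75e-05) and the largest of the list. At the branch to sterols, Fdft1, squalene synthase, fell by 0.68 (SE 0.10, adjusted p = 0.00372). Sqle, which puts the first oxygen on squalene, had 8.73, 8.81 and 8.64 in fasted livers, against 9.79, 10.03 and 10.28 in fed livers, and fell 2.47-fold (change -1.31, SE 0.19, adjusted p = 0.00365). Lss, which closes the rings, had 7.31, 7.26 and 7.27 in fasted livers, against 7.90, 8.08 and 8.18 in fed livers, and fell by 0.77 (SE 0.11, adjusted p = 0.00349).

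The later steps fell as well. Cyp51, which removes a methyl group from lanosterol, had 9.16, 9.36 and 8.98 in fasted livers, against 10.45, 10.70 and 10.59 in fed livers (2.67-fold lower, change -1.42, SE 0.12, adjusted p = 8.59e-05). Msmo1 and Nsdhl remove the remaining methyl groups. Msmo1 fell by 0.96 (SE 0.12, adjusted p = 0.00211). Nsdhl had 9.80, 9.60 and 9.58 in fasted livers, against 11.18, 11.16 and 11.28 in fed livers, a 2.91-fold fall (change -1.54, SE 0.08, adjusted p = 5.55e-06) with the smallest adjusted p of the list. Sc5d, a desaturase near the end, had 11.53, 11.49 and 11.55 in fasted livers, against 12.09, 12.00 and 12.08 in fed livers, and fell by 0.53 (SE 0.07, adjusted p = 0.00164), and the reductase gene Tm7sf2 fell by 0.40 (SE 0.10, adjusted p = 0.0452). The 5 genes without a call were Dhcr7, which changed by -0.47 (adjusted p = 0.118), Mvd by -0.31 (adjusted p = 0.181), Mvk by -0.27 (adjusted p = 0.236), Ebp by -0.08 (adjusted p = 0.747) and Hsd17b7 by -0.03 (adjusted p = 0.896). Tm7sf2 missed the threshold whichever of the 6 arrays was left out, while the other 10 kept their calls without each array in turn, so each of these 6 fits left 10 genes lower.

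**Figure D3:**
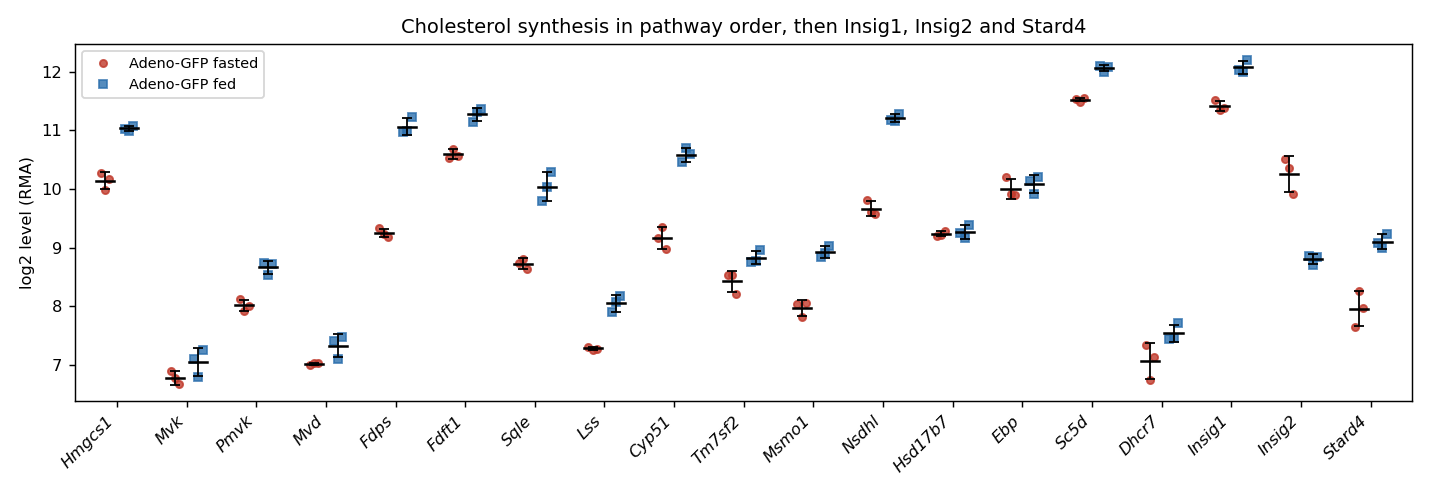
Log2 levels of the 16 measured genes of cholesterol synthesis in pathway order, then of Insig1, Insig2 and Stard4, on each fasted (red circles, left of each pair) and fed (blue squares) Adeno-GFP array, with the mean and SD of 3 arrays in black. Fasted arrays lie under fed arrays in the 11 called genes and above them in Insig2, and the groups overlap in Mvk, Ebp and Hsd17b7.

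The regulators of sterol synthesis were split. Insig1 and Insig2 both hold SREBP in the endoplasmic reticulum when sterols are plentiful. Insig1, itself an SREBP target, had 11.52, 11.35 and 11.38 in fasted livers, against 12.02, 12.00 and 12.20 in fed livers, and fell by 0.66 (SE 0.12, adjusted p = 0.0116). Insig2 had 10.50, 10.35 and 9.91 in fasted livers, against 8.85, 8.71 and 8.85 in fed livers, and rose 2.73-fold (change 1.45, SE 0.16, adjusted p = 0.000763). Stard4, which carries cholesterol between membranes, had 7.65, 8.26 and 7.96 in fasted livers, against 9.07, 8.99 and 9.24 in fed livers, and fell 2.21-fold (change -1.14, SE 0.14, adjusted p = 0.0014). Scarb1, the receptor for high-density lipoprotein, had 9.58, 9.42 and 9.40 in fasted livers, against 8.97, 8.87 and 8.89 in fed livers, and rose by 0.56 (SE 0.08, adjusted p = 0.00432). These were the 2 rises and 2 falls among 15 genes of sterol handling, and all 4 kept their calls without each array in turn. Srebf2, which encodes SREBP-2, changed by -0.05 (adjusted p = 0.842).

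Promoters of cholesterol genes are shown because these genes fell together and because NF-Y, which binds the CCAAT box, is known to act beside SREBP on them. In the 250 bases before the start of transcription (RefSeq, GRCm38.p6), the letters CCAAT on either strand were present in all 13 measured members with a promoter sequence, 8 of them called, and in 38.7% of 16990 measured genes. This is a count of letters in a window, with no test, and the motif was chosen after the changes were known. The stretches below run 5′ to 3′ on the gene's strand and end near the start site, with each CCAAT or its reverse complement ATTGG in capitals. They lie at chrX:72918382-72918520 (+ strand) for Nsdhl, chr5:4104698-4104756 (- strand) for Cyp51, chr13:119690101-119690340 (+ strand) for Hmgcs1 and chr10:76531513-76531577 (+ strand) for Lss. Hmgcs1 holds 3 matches, the nearest 45 bases before the start, Nsdhl 2, the nearest at 20 bases, and Cyp51 and Lss 1 each, at 29 and 62 bases.
Nsdhl: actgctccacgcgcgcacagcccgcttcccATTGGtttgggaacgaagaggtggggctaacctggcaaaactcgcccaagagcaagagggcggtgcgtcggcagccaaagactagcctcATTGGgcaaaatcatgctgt
Cyp51: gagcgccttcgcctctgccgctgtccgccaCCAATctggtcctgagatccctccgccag
Hmgcs1: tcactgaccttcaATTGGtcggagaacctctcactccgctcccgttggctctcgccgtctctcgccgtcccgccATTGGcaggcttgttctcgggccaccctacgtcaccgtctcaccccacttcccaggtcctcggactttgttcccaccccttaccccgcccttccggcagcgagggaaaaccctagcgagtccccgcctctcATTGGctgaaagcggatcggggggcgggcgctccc
Lss: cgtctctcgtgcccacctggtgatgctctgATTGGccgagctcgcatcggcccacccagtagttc

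Bile acid genes gave 3 falls and 1 rise among 22 (median -0.03), against 1.87% and 1.2% of all genes. Cyp2c70, which makes the muricholic acids of mice, had log2 levels of 11.21, 10.78 and 11.13 in fasted livers, against 12.25, 12.21 and 12.31 in fed livers, a 2.32-fold fall (change -1.22, SE 0.11, adjusted p = 0.000177). Cyp7b1, of the alternative synthesis path, had 9.89, 9.16 and 9.85 in fasted livers, against 10.69, 10.38 and 10.74 in fed livers, and fell by 0.97 (SE 0.19, adjusted p = 0.0191). The uptake carrier Slco1a1 had 11.44, 11.44 and 11.41 in fasted livers, against 12.03, 11.94 and 11.92 in fed livers, and fell by 0.53 (SE 0.10, adjusted p = 0.015). The related carrier Slco1a4 went the other way, with 11.25, 11.85 and 11.22 in fasted livers, against 9.90, 10.45 and 9.85 in fed livers, a 2.59-fold rise (change 1.37, SE 0.21, adjusted p = 0.00532). Cyp7a1, the rate-limiting enzyme of bile acid synthesis, changed by -0.71 (SE 0.20, adjusted p = 0.0796) and Cyp8b1, which makes cholic acid, by 0.72 (SE 0.19, adjusted p = 0.0585), and neither was called. Cyp2c70 and Slco1a4 kept their calls without each array in turn. Cyp7b1 lost it without fed arrays 1 or 3 and Slco1a1 without fasted array 3 or fed arrays 1 or 2. The lower members numbered 4, 3 and 2 without fasted arrays 1, 2 and 3, and 1, 2 and 2 without fed arrays 1, 2 and 3. Among 14 genes of apolipoproteins and lipoprotein assembly, Apoa4, which rides on triglyceride-rich particles, had 11.88, 11.68 and 11.80 in fasted livers, against 10.77, 10.50 and 10.67 in fed livers, and rose 2.2-fold (change 1.14, SE 0.13, adjusted p = 0.000763), a call that held without each array in turn, and no other member was called.

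Of 26 targets of growth hormone and STAT5 7 fell and 0 rose, against 1.87% and 1.2% of all genes, with a median of -0.25 and negative changes in 17. Hsd3b5, a ketosteroid reductase of male mouse liver, had log2 levels of 6.70, 6.53 and 5.90 in fasted livers, against 11.17, 10.81 and 10.94 in fed livers. Its fall of 24.1-fold (change -4.59, SE 0.34, adjusted p = 3.31e-05) was the largest of any called gene, and its fasted level is close to the array medians, so the true size is uncertain. Keg1 had 10.15, 10.21 and 10.19 in fasted livers, against 11.76, 11.74 and 11.78 in fed livers, and fell 2.99-fold (change -1.58, SE 0.16, adjusted p = 0.000339), and its 2 probe sets changed by -1.58 and -1.34. Serpina12, a secreted protease inhibitor, fell by 1.27 (SE 0.21, adjusted p = 0.00721), with a fasted mean under the array medians. Ghr, the growth hormone receptor, had 11.37, 11.42 and 11.30 in fasted livers, against 11.75, 11.74 and 11.76 in fed livers, and fell by 0.39 (SE 0.07, adjusted p = 0.01). Cyp4a12a, a male fatty acid hydroxylase, fell by 0.62 (SE 0.15, adjusted p = 0.0442). Cyp7b1 and Slco1a1, given above, are the other called members.

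Igf1, the hormone that growth hormone induces in liver, had 12.05, 12.08 and 12.11 in fasted livers, against 12.09, 12.01 and 12.14 in fed livers, with overlapping groups and a change of 0.00 (SE 0.09, adjusted p = 0.997). Socs2, a feedback inhibitor of the receptor, had overlapping groups and a change of -0.77 (SE 0.52, adjusted p = 0.513). Hsd3b5, Keg1, Serpina12 and Ghr kept their calls without each array in turn, and Cyp4a12a lost it whichever array was left out. The lower members numbered 6, 6 and 5 without fasted arrays 1, 2 and 3, and 4, 5 and 6 without fed arrays 1, 2 and 3.

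Genes that handle foreign compounds were split. Among 26 targets of the receptors CAR and PXR 3 rose and 3 fell (median 0.07), against 1.2% and 1.87% of all genes. Gstm3, a glutathione transferase, had 8.65, 8.14 and 8.47 in fasted livers, against 10.78, 10.48 and 10.70 in fed livers, a 4.71-fold fall (change -2.23, SE 0.15, adjusted p = 1.89e-05). Cyp2c55, a cytochrome P450, had 6.36, 7.52 and 6.56 in fasted livers, against 9.09, 9.43 and 9.37 in fed livers, a 5.61-fold fall (change -2.49, SE 0.33, adjusted p = 0.00237) in its brightest probe set and a change of -0.38 (adjusted p = 0.125) in its other. Its levels on fasted arrays 1 and 3 are close to the array medians, so the true size of the fall is uncertain. Cyp2c29 fell by 0.60 in the brightest probe set but changed by 0.23 (adjusted p = 0.56) in the other, so its direction is not settled. Cyp2c39 rose by 0.56 (SE 0.10, adjusted p = 0.0134), Cyp3a13 by 0.40, and the sulphotransferase gene Sult1d1 by 0.38. Gstm3 and Cyp2c55 kept their calls without each array in turn. Cyp2c39 lost it without fed array 2, Cyp2c29 without fasted arrays 1 or 3 or fed array 1, Cyp3a13 without fasted arrays 2 or 3 or fed arrays 1 or 2, and Sult1d1 without any 1 of the 6 arrays. The higher members numbered 2, 1 and 1 without fasted arrays 1, 2 and 3, and 1, 0 and 2 without fed arrays 1, 2 and 3.

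The targets of NRF2, the sensor of oxidants and electrophiles, had 4 of 18 lower and 0 higher (median -0.18), against 1.87% and 1.2% of all genes. Besides Gstm3, which is on both lists, these were Gstm1, Ugdh and Gsta4. Gstm1, a glutathione transferase, had 8.56, 8.59 and 8.61 in fasted livers, against 9.04, 9.14 and 8.97 in fed livers, and fell by 0.46 (SE 0.07, adjusted p = 0.00422). Ugdh, which makes UDP-glucuronic acid, fell by 0.53 (SE 0.10, adjusted p = 0.0158) and Gsta4 fell by 0.57 (SE 0.13, adjusted p = 0.0323). Nqo1, the quinone reductase most used to read NRF2, changed by -0.06 (adjusted p = 0.884). Gstm1 kept its call without each array in turn, Ugdh lost it without fasted arrays 2 or 3 or fed arrays 1 or 2, and Gsta4 without fasted arrays 1 or 3 or fed arrays 1, 2 or 3. Counted as above, the lower members numbered 3, 3 and 2 without fasted arrays 1, 2 and 3, and 2, 2 and 3 without fed arrays 1, 2 and 3.

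Glucocorticoid-responsive genes gave 3 rises and 0 falls among 18 (median 0.31, positive in 15), against 1.2% and 1.87% of all genes. Mt2, a metal-binding metallothionein, had log2 levels of 11.65, 11.79 and 12.14 in fasted livers, against 9.52, 10.47 and 10.47 in fed livers, a 3.26-fold rise (change 1.70, SE 0.23, adjusted p = 0.00218). Klf9, a transcription factor induced by the receptor, had 9.17, 8.97 and 8.92 in fasted livers, against 8.40, 8.06 and 8.46 in fed livers, and rose by 0.71 (SE 0.12, adjusted p = 0.00747). Fkbp5, a co-chaperone of the receptor, had 8.70, 8.58 and 8.31 in fasted livers, against 7.59, 8.04 and 7.68 in fed livers, and rose by 0.76 (SE 0.16, adjusted p = 0.0266). The receptor gene Nr3c1 changed by -0.11 (adjusted p = 0.594). Zbtb16, another target, had groups that did not overlap and a change of 1.18 (SE 0.39, adjusted p = 0.139), with fasted arrays spread over 0.74 (SD). Mt2 and Klf9 kept their calls without each array in turn, and Fkbp5 lost it without fasted arrays 1 or 2 or fed arrays 1 or 3.

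Of the insulin and FOXO list, Pdk4 was the 1 called gene among 13 (median 0.08). Igfbp1 binds insulin-like growth factors and rises when insulin is low. It had 10.93, 10.42 and 10.19 in fasted livers, against 9.38, 9.34 and 8.77 in fed livers. The groups did not overlap, and the change of 1.35 (SE 0.61, adjusted p = 0.294) missed the threshold. That SE draws on the spread over all arrays of the series, Adeno-Cre included, and not on the printed values alone. Irs2, an adaptor of the insulin receptor, changed by 0.33 (adjusted p = 0.206) and Insr by 0.11 (adjusted p = 0.563). Among 14 hormone receptor genes 3 fell, of which Ghr is given above. Egfr, the receptor of epidermal growth factor, had 11.59, 11.45 and 11.50 in fasted livers, against 12.14, 11.98 and 12.44 in fed livers (change -0.67, SE 0.13, adjusted p = 0.0188). The adrenergic receptor gene Adra1b had 7.47, 7.97 and 7.60 in fasted livers, against 8.21, 8.26 and 8.25 in fed livers (change -0.56, SE 0.11, adjusted p = 0.0164). Lepr, the leptin receptor, had 7.52, 8.80 and 7.80 in fasted livers, against 6.70, 6.77 and 6.67 in fed livers, and a change of 1.32 (SE 0.39, adjusted p = 0.0989), with fasted array 2 far above the others. Egfr lost its call without fasted arrays 2 or 3 or fed arrays 1 or 3 and Adra1b without fasted arrays 1 or 3 or fed arrays 1 or 2. Receptor genes that fell numbered 2, 2 and 1 without fasted arrays 1, 2 and 3, and 1, 2 and 2 without fed arrays 1, 2 and 3.

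The acute phase list, proteins that the liver secretes in inflammation, had 5 of 26 higher and 0 lower, with a median of 0.04, close to that of all genes. Lbp, which binds bacterial lipopolysaccharide, had 11.21, 11.08 and 10.89 in fasted livers, against 10.17, 10.20 and 10.10 in fed livers, a 1.87-fold rise (change 0.90, SE 0.10, adjusted p = 0.000663). Mt1 had 10.08, 10.34 and 10.52 in fasted livers, against 8.89, 9.15 and 9.24 in fed livers, a 2.33-fold rise (change 1.22, SE 0.17, adjusted p = 0.00341), beside Mt2, given above. Itih3, of a family that binds hyaluronan, rose by 0.41 (SE 0.08, adjusted p = 0.0193) and the protease inhibitor gene Serpina3n by 0.34 (SE 0.08, adjusted p = 0.0398). Lcn2, lipocalin 2, had 8.65, 7.34 and 7.68 in fasted livers, against 6.65, 6.99 and 6.84 in fed livers, and a change of 1.07 (SE 0.29, adjusted p = 0.0772). Lbp and Mt1 kept their calls without each array in turn, Itih3 lost it without fasted array 1 or fed arrays 1 or 2 and Serpina3n whichever array was left out. The list's higher members numbered 3, 5 and 5 without fasted arrays 1, 2 and 3, and 3, 3 and 4 without fed arrays 1, 2 and 3.

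Secreted liver factors went both ways, with 2 of 24 higher and 4 lower (median 0.08). Hjv, hemojuvelin, which steers iron balance, had 8.95, 8.72 and 8.88 in fasted livers, against 8.28, 8.20 and 8.14 in fed livers, and rose by 0.65 (SE 0.09, adjusted p = 0.00296). Igfbp2, another binder of insulin-like growth factors, rose by 0.93 (SE 0.18, adjusted p = 0.0153). Serpina7, the thyroxine-binding globulin, had 6.96, 8.89 and 8.30 in fasted livers, against 9.89, 10.30 and 10.12 in fed livers, a 4.16-fold fall (change -2.06, SE 0.35, adjusted p = 0.00884) with fasted arrays spread over 0.99 (SD). Serpina6, the corticosteroid-binding globulin, had 11.53, 12.11 and 11.80 in fasted livers, against 12.55, 12.51 and 12.52 in fed livers, and fell by 0.71 (SE 0.12, adjusted p = 0.00899). Inhba, a subunit of activin, fell by 0.91 (SE 0.13, adjusted p = 0.00312), and the other fall is that of Angptl8. Hjv, Inhba, Serpina7 and Serpina6 kept their calls without each array in turn, and Igfbp2 lost it without fasted arrays 1 or 2 or fed array 2.

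Of 18 clock genes 2 rose and 1 fell, against 1.2% and 1.87% of all genes. Clock, which drives the rhythm, had 10.73, 10.67 and 10.55 in fasted livers, against 10.12, 10.09 and 10.08 in fed livers, and rose by 0.55 (SE 0.09, adjusted p = 0.00656). Ciart, a repressor of it, rose by 0.73 (SE 0.15, adjusted p = 0.025), and Bhlhe40, another repressor, had 9.05, 9.57 and 9.47 in fasted livers, against 10.28, 10.00 and 10.29 in fed livers, and fell by 0.83 (SE 0.13, adjusted p = 0.00556). Arntl, the partner of Clock, changed by 0.77 (SE 0.23, adjusted p = 0.104), with the highest value on fasted array 1. Ciart lost its call without fasted array 3 or fed arrays 1 or 2, while Clock and Bhlhe40 kept theirs without each array in turn.

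Hepatocyte zones were read from 2 lists. Of 16 pericentral genes, Cyp1a2, a cytochrome P450 of the cells around the central vein, had 10.90, 11.17 and 10.96 in fasted livers, against 12.02, 11.83 and 11.95 in fed livers, and fell by 0.93 (SE 0.12, adjusted p = 0.00217). Rgn, a calcium-binding lactonase, had 11.91, 12.05 and 11.97 in fasted livers, against 12.63, 12.63 and 12.64 in fed livers, and fell by 0.65 (SE 0.07, adjusted p = 0.000799). Oat rose, as given above. All 3 kept their calls without each array in turn, and the pericentral markers Cyp2e1 and Glul changed by 0.05 (adjusted p = 0.749) and -0.06 (adjusted p = 0.737). Of 14 periportal genes Asl alone was called, while 1.2% of all genes rose and 1.87% fell. The medians were -0.06 (pericentral) and 0.20 (periportal).

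Cell cycle genes were lower in fasted livers. Of 41 measured genes 11 fell and 0 rose, against 1.87% and 1.2% of all genes, 39 changes were negative, and the median was -0.53. Ccnd1, cyclin D1, which leads cells out of rest, had log2 levels of 7.38, 7.31 and 7.21 in fasted livers, against 8.20, 8.02 and 7.93 in fed livers, with little spread, and fell by 0.75 (SE 0.09, adjusted p = 0.00105). Mki67, the proliferation antigen Ki-67, had 8.18, 6.94 and 7.29 in fasted livers, against 8.92, 9.11 and 8.48 in fed livers (2.58-fold lower, change -1.37, SE 0.26, adjusted p = 0.0164). Cdk1, the kinase that starts mitosis, had 7.43, 6.46 and 6.95 in fasted livers, against 8.08, 8.20 and 7.63 in fed livers (change -1.03, SE 0.22, adjusted p = 0.0254). Top2a, which untangles DNA, had 7.58, 6.50 and 6.90 in fasted livers, against 8.44, 8.85 and 7.95 in fed livers (change -1.42, SE 0.27, adjusted p = 0.0151). In each of these 3, fasted array 1 was the highest of the fasted arrays and fed array 3 the lowest of the fed arrays, and the groups still did not overlap.

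Genes of the spindle and its checkpoint were also highest on array 1 among fasted arrays and lowest on array 3 among fed arrays. Kif11, a spindle motor, had 6.66, 6.26 and 6.09 in fasted livers, against 7.70, 8.21 and 7.34 in fed livers, a 2.66-fold fall (change -1.41, SE 0.21, adjusted p = 0.00432). The kinetochore genes Nuf2 and Ndc80 fell by 1.47 (SE 0.34, adjusted p = 0.0362) and 1.08 (SE 0.24, adjusted p = 0.034). The checkpoint kinase gene Bub1 fell by 1.23 (SE 0.23, adjusted p = 0.0147). Shcbp1, found at the midbody when cells part, had 6.42, 4.71 and 5.34 in fasted livers, against 7.74, 7.99 and 7.31 in fed livers (change -2.19, SE 0.32, adjusted p = 0.00384). Hmmr, a spindle protein, had 6.58, 4.85 and 5.78 in fasted livers, against 7.56, 7.73 and 6.78 in fed livers (change -1.62, SE 0.35, adjusted p = 0.0277). The fasted means of Bub1, Shcbp1 and Hmmr are under the array medians and that of Kif11 is at them, so the size of their falls is uncertain. Ccne1, cyclin E1, fell by 0.45 (SE 0.11, adjusted p = 0.0455). Of the rest, Ccna2 changed by -0.68 (adjusted p = 0.145), Pcna, the clamp of DNA replication, by -0.29 (adjusted p = 0.109), and the helicase gene Mcm2 by -0.04 (adjusted p = 0.914).

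How many cell cycle genes fell depended on single arrays: the count was 17, 4 and 4 without fasted arrays 1, 2 and 3, and 5, 3 and 11 without fed arrays 1, 2 and 3. Ccnd1, Kif11 and Shcbp1 kept their calls without each array in turn. Mki67, Cdk1, Top2a, Nuf2, Ndc80 and Hmmr lost theirs without fasted arrays 2 or 3 or fed arrays 1 or 2, Bub1 without fed array 2, and Ccne1 without fasted arrays 1, 2 or 3 or fed arrays 2 or 3. The list median stayed between -0.74 and -0.40 over these fits. Markers of endothelial cells, which can divide too, had a median of -0.29 in the same comparison, as given above, and their part in the fall was not tested.

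**Figure D4:**
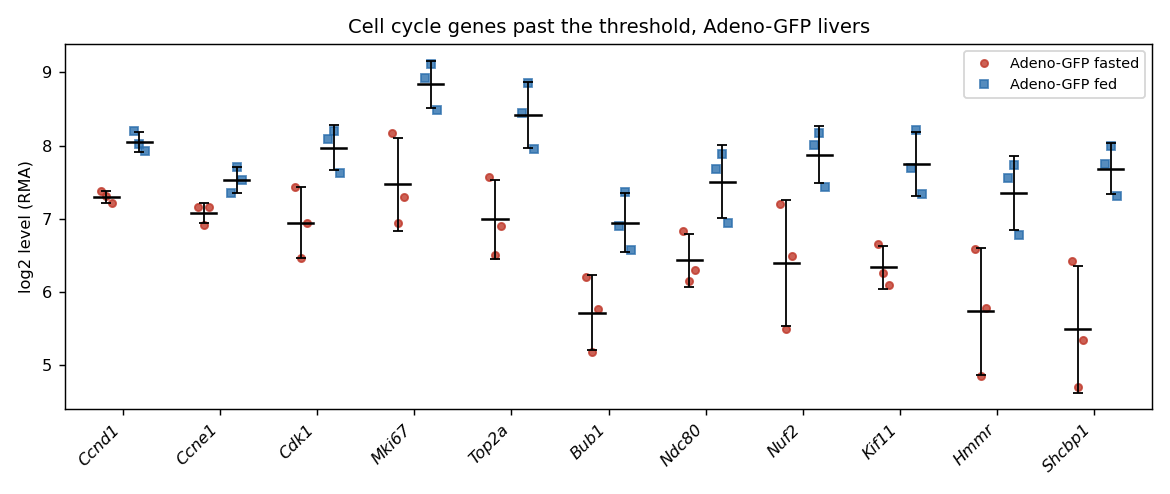
Log2 levels of the 11 called cell cycle genes on each fasted (red circles, left of each pair) and fed (blue squares) Adeno-GFP array, with the mean and SD of 3 arrays in black. The fasted arrays lie under the fed arrays in every one of these called genes, with wide fasted spread in Shcbp1 (SD 0.87) and little in Ccnd1 (SD 0.09). Of all genes, 22.2% have groups that do not overlap.

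Promoters of 3 of these genes are shown because the CCAAT box and the cell cycle homology region, whose core is TTTGAA, are known elements of genes of division. In the 250 bases before the start, CCAAT was present in 24 of 33 cell cycle genes with a promoter sequence (72.7%, against 38.7% of 16990 measured genes) and TTTGAA in 12 (36.4%, against 16.1%). All 12 held both motifs, as did 6.58% of the measured genes. Among the 9 called genes with a promoter sequence, CCAAT was present in 6 (66.7%), a share no higher than in the whole list. Both motifs were present in 4 of the 9 (44.4%), and the 3 shown are among these. Both strands were searched, the motifs were chosen after the changes were known, and no test was made. In the stretches both motifs are in capitals, as CCAAT or its reverse complement ATTGG for the box, and as TTTGAA or its reverse complement TTCAAA for the core. They lie at chr19:37376307-37376381 (+ strand) for Kif11, chr11:99024190-99024439 (- strand) for Top2a and chr10:69352913-69353150 (- strand) for Cdk1 in GRCm38.p6. The TTTGAA match nearest the start lies 19 bases before it in Kif11, 23 in Top2a and 15 in Cdk1.
Kif11: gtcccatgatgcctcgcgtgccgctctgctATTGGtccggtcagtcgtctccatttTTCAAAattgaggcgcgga
Top2a: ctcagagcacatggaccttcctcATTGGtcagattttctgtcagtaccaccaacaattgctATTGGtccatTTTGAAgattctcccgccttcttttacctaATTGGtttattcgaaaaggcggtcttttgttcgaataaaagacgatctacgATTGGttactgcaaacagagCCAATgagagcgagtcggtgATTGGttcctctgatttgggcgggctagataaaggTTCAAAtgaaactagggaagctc
Cdk1: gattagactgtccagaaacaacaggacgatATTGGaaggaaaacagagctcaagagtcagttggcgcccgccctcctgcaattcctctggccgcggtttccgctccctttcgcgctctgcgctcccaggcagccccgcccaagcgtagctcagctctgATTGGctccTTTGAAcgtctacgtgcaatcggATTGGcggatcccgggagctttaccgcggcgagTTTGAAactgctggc

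Of 27 measured targets of p53, whose floxed gene these mice carry, 2 rose and 1 fell (median 0.03), against 1.2% and 1.87% of all genes. Dcxr, a carbonyl reductase, had 9.27, 9.11 and 9.14 in fasted livers, against 8.70, 8.49 and 8.77 in fed livers, and rose by 0.52 (SE 0.08, adjusted p = 0.00697). Ei24, a membrane protein of the endoplasmic reticulum, had 12.00, 12.02 and 11.99 in fasted livers, against 11.50, 11.69 and 11.54 in fed livers, and rose by 0.42 (SE 0.07, adjusted p = 0.0109). Plk2, a kinase of the polo family, had 8.31, 7.95 and 8.48 in fasted livers, against 9.21, 9.18 and 8.94 in fed livers, and fell by 0.86 (SE 0.14, adjusted p = 0.00661). Cdkn1a, which halts the cell cycle, had 9.40, 7.65 and 8.39 in fasted livers, against 7.68, 8.28 and 7.62 in fed livers, with overlapping groups, fasted array 1 highest and a change of 0.62 (SE 0.33, adjusted p = 0.388). Mdm2 changed by -0.22 (adjusted p = 0.22) and Ccng1 by -0.11 (adjusted p = 0.613). Dcxr and Plk2 kept their calls without each array in turn, and Ei24 lost it without fed array 1.

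Other lists had few calls or none, and their counts stand beside 1.2% of all genes higher and 1.87% lower. In limma 0 of 33 genes of oxidative phosphorylation were called (changes from -0.17 to 0.15), 0 of 31 of ribosome biogenesis (-0.26 to 0.55), 0 of 25 ATF4 targets (-0.50 to 0.45), 0 of 17 brakes of the growth kinase mTOR (-0.54 to 0.45) and 0 of 15 cytosolic chaperones (-0.32 to 0.46). At an unadjusted p under 0.05 the numbers were 0, 3, 4, 4 and 3, beside 16.7% of all genes. Among 31 autophagy genes the lysosomal protease gene Ctsl rose by 0.30 (SE 0.07, adjusted p = 0.0322), lost whichever array was left out. Ulk2, a kinase that starts autophagy, had 8.87, 8.96 and 8.76 in fasted livers, against 9.46, 9.45 and 9.44 in fed livers, and fell by 0.58 (SE 0.09, adjusted p = 0.00432), kept without each array in turn. Among 23 genes of protein folding in the endoplasmic reticulum, Sec61b, of the channel through its membrane, fell by 0.71 (SE 0.11, adjusted p = 0.0062), kept without each array in turn (its other probe set changed by -0.51, adjusted p = 0.113), and the oxidase gene Ero1b fell by 0.46, lost whichever array was left out. Of 37 interferon-response genes 1 fell, against 1.87% of all genes. The chemokine gene Cxcl9 had 9.22, 8.38 and 9.26 in fasted livers, against 9.63, 10.03 and 10.05 in fed livers, a fall of 0.95 (SE 0.20, adjusted p = 0.0265) that was lost without fed arrays 2 or 3.

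Several of the largest changes were in genes outside these lists. Fabp5, a fatty acid binding protein, had log2 levels of 6.05, 6.61 and 6.49 in fasted livers, against 9.72, 9.46 and 10.07 in fed livers, a 10.3-fold fall (change -3.37, SE 0.19, adjusted p = 5.55e-06), and the changes of its 4 probe sets ran from -3.51 to -2.44. Its fasted level is close to the array medians, so the true size is uncertain. The pseudogene Serpina4-ps1 had 7.10, 7.68 and 8.42 in fasted livers, against 10.42, 10.55 and 11.56 in fed livers (8.62-fold lower, change -3.11, SE 0.48, adjusted p = 0.00524). Ugt2b38, a glucuronosyltransferase, fell by 3.16 (SE 0.27, adjusted p = 9.32e-05). The pseudogene Cyp2c53-ps fell by 1.97 (SE 0.31, adjusted p = 0.00524), and both have fasted means far under the array medians, so those sizes are uncertain. Fabp5, Serpina4-ps1, Ugt2b38 and Cyp2c53-ps kept their calls without each array in turn.

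Among rises outside the lists, Cyp17a1, a hydroxylase of steroids, had 10.28, 9.77 and 10.48 in fasted livers, against 8.05, 8.62 and 8.19 in fed livers, a 3.7-fold rise (change 1.89, SE 0.20, adjusted p = 0.000684). Trim43c, of the tripartite motif family, had 11.34, 10.81 and 11.72 in fasted livers, against 7.96, 8.93 and 9.00 in fed livers, a 6.32-fold rise (change 2.66, SE 0.34, adjusted p = 0.0018), the largest of any called gene. Gadd45g, a stress-response gene, had 7.57, 7.26 and 7.73 in fasted livers, against 5.88, 6.13 and 5.97 in fed livers, a rise of 1.53 (SE 0.12, adjusted p = 4.79e-05) over fed levels under the array medians. Defb1, an antimicrobial defensin, had 8.91, 8.80 and 8.51 in fasted livers, against 7.92, 7.72 and 6.90 in fed livers, a 2.34-fold rise (change 1.23, SE 0.22, adjusted p = 0.0123). These 4 kept their calls without each array in turn. Fam107a, an actin-binding protein, had 8.40, 6.97 and 6.32 in fasted livers, against 5.27, 5.31 and 5.32 in fed livers, with dim fed levels and fasted arrays spread over 1.06 (SD), a rise of 1.93 (SE 0.40, adjusted p = 0.0229) that was lost without fed arrays 1, 2 or 3. Its other probe set rose by 0.64. The annotation also gives the names of microRNA genes to 2 of the 15 probe sets with the largest rises, and no level of a mature microRNA was measured.

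The same fasting was measured in the 6 Adeno-Cre arrays. There 592 genes were called (2.67%), 333 higher (1.5%) and 259 lower (1.17%). Each fasting change came from the arrays of its own injection. Both tests, however, used an estimate of spread pooled over the arrays of both injections. The calls after Adeno-GFP and after Adeno-Cre are therefore not independent. Of the 267 genes that rose after Adeno-GFP, 144 (53.9%) also rose after Adeno-Cre, which is 43.2% of the 333, and 256 (95.9%) changed in that direction there. Of the 415 that fell after Adeno-GFP, 112 (27%) also fell after Adeno-Cre, 43.2% of the 259, and 394 (94.9%) changed in that direction there. Hsd3b5 changed by -4.59 after Adeno-GFP and -5.14 after Adeno-Cre, Fdps by -1.82 and -1.87, Nsdhl by -1.54 and -1.42, Cyp4a14 by 1.77 and 2.07, and Retsat by 1.22 and 1.09, each called in both.

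The lists can be set side by side in the same way. Cholesterol synthesis had 11 of 16 lower after Adeno-GFP (median -0.66) and 7 of 16 after Adeno-Cre (median -0.42). Oxidation had 15 of 30 higher after Adeno-GFP (median 0.34) and 11 after Adeno-Cre (median 0.32), and amino acid breakdown 12 of 48 (median 0.26) and 20 (median 0.28). Lipogenesis had 15 of 27 lower after Adeno-GFP (median -0.43) and 6 after Adeno-Cre (median -0.25), and Srebf1 changed by -1.01 and -0.24 (adjusted p of the difference = 0.294). The cell cycle had 11 of 41 lower after Adeno-GFP (median -0.53), and 1 lower and 1 higher after Adeno-Cre (median -0.21); for the 11 genes the adjusted p of the difference ran from 0.54 (Shcbp1) to 0.723 (Ndc80). Interferon-response genes had 1 of 37 lower after Adeno-GFP (median -0.08) and 20 after Adeno-Cre (median -0.91). Gbp10, an interferon-induced GTPase, changed by -0.93 after Adeno-GFP (not called) and -2.17 after Adeno-Cre (adjusted p of the difference = 0.538).

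**Figure D5:**
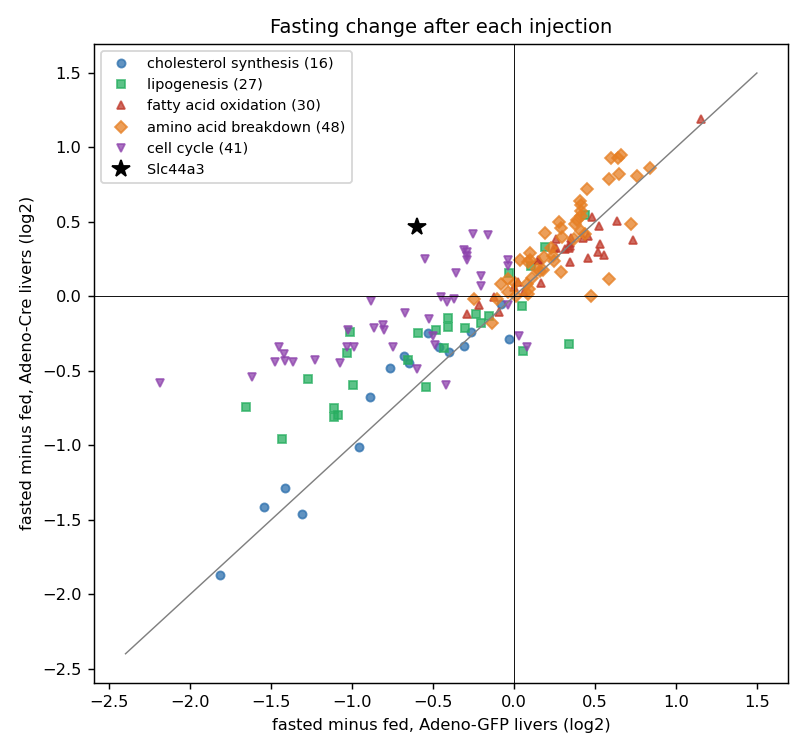
Fasted minus fed change (log2) after Adeno-GFP (x axis) and after Adeno-Cre (y axis) for the measured genes of 5 lists and for Slc44a3; each point is a gene and the grey line marks equal changes. The medians of cholesterol genes (-0.66 and -0.42) and of cell cycle genes (-0.53 and -0.21) were both less negative after Adeno-Cre. Slc44a3 (-0.60 and 0.47) stands by itself.

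The difference between the 2 fasting changes was itself tested, and 1 gene was called (0.00451% of those tested), while 1676 (7.56%) had an unadjusted p under 0.05. The gene was Slc44a3, of a family of choline transporter-like proteins, with log2 levels of 7.51, 7.41 and 7.57 in fasted livers, against 8.16, 8.18 and 7.95 in fed livers after Adeno-GFP. It fell by 0.60 (SE 0.09, adjusted p = 0.00452) there and had a positive change of 0.47 (adjusted p = 0.0192) after Adeno-Cre, a difference of -1.07 (adjusted p = 0.0481), and it was the 1 gene called in opposite directions after the 2 injections. The fall after Adeno-GFP kept its call without each of the 6 arrays, but the test of the difference lost it without any of 11 of the 12 arrays, all but Adeno-GFP fed replicate 3, with adjusted p from 0.0618 to 0.257.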

How the data were processed

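Gene expression was measured on 12 Affymetrix arrays, 3 in each of 4 groups of mouse livers, from 200 ng of total RNA whose integrity numbers were above 7 (per the labels' protocols). The authors deposited log2 expression levels per probe set, normalised by robust multi-array average (RMA), per the submitters' processing notes. No detection calls were used here, the precision rests on the number of arrays, and RMA draws dim probe sets toward a common floor and so understates their changes. The array type, any scan batch and the genome build were not stated in the labels.

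Of 41345 probe sets, 23521 name 1 gene in GEO's platform annotation, 1814 name several and 16010 are not listed; those naming 1 gene were used, and 23328 had a gene ID in RefSeq. For each of the 22180 genes 1 probe set was kept, that of the highest mean level across the 12 arrays. The change, fasted minus fed in Adeno-GFP livers, was fitted with limma 3.58.1 in R 4.3.3 (lmFit and eBayes) on all 12 arrays with a mean per group, so the Adeno-Cre arrays add to the estimate of spread (8 residual degrees of freedom), and the difference from the Adeno-Cre change was a contrast in the same fit. Adjustment followed Benjamini and Hochberg across all genes, and adjusted values under 0.05 were called. The fit was also run on simulated data with added changes, where false calls were a larger share of the calls than the nominal 0.05.

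The 46 gene lists, the members and the comparisons were chosen with earlier results of these data known. Genes were named by rule: the 15 largest rises and 15 largest falls among called, non-overlapping and not merely predicted genes, up to 6 called members with the smallest p per pathway or zone list, up to 8 called differences between injections, and a fixed set of fasting genes. Further list members and called cell type markers were named after their values were seen. Alternatives were leaving out dim genes, quantile normalization, the replicate number as a block, the 6 Adeno-GFP arrays alone, a trended and robust prior, averaged or separate probe sets, and leaving out each array; leaving out Adeno-Cre fasted replicate 3 in the comparison after Adeno-GFP was added after the data were seen. Some genes of these pathways are not reported here. Promoter sequences are RefSeq's for GRCm38.p6. Tables and figures were made with Python 3.11.15, pandas 2.3.3 and matplotlib 3.10.9.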

Additional observations from a re-analysis of the deposited data

Results flagged for a closer look

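Slc44a3 stood out because its fasting change after Adeno-GFP differed from that after Adeno-Cre in a test of the difference, which was -1.07 on the log2 scale (adjusted p = 0.0481, limma). After Adeno-GFP it averaged 7.50 ± 0.08 in fasted and 8.10 ± 0.13 in fed livers, and after Adeno-Cre 8.39 ± 0.12 in fasted and 7.92 ± 0.07 in fed livers (SD, n = 3 each). It was the 1 gene past the threshold among 22180, and its adjusted p ran from 0.00997 to 0.312 over the alternatives.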

How the results depend on the processing

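The number of genes called with fasting after Adeno-GFP was 682 (267 higher, 415 lower). It was 1100 (413 higher, 687 lower) when dim genes were left out, which also means fewer genes tested, 1038 (396 higher, 642 lower) with a trended and robust prior, and 394 (164 higher, 230 lower) with the 6 Adeno-GFP arrays alone, which leaves fewer arrays for the spread. Leaving out each Adeno-GFP array in turn gave 275 to 487 in all, 106 to 169 higher and 169 to 318 lower. Quantile normalization, averaged probe sets and separate probe sets gave 703, 681 and 705, and leaving out Adeno-Cre fasted replicate 3, chosen after seeing the data, gave 720 (283 higher, 437 lower). Of the 135 genes that the naming rule selected 120 were called, 75 of these without each of the 6 arrays in turn. Of the 120 called genes 0 changed direction in any of these fits. Between 23 and 40 of these 120 lost their calls when 1 array was left out, most without fed array 1, and 28 did with the 6 arrays alone. With those 6 arrays alone, 2 named genes that had missed the threshold were called.

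For the difference between the injections, the count of 1 was 0 with quantile normalization, with separate probe sets and without each array but Adeno-GFP fasted replicate 3 and fed replicate 3, so it ran from 0 to 1. Without fasted replicate 3 the 1 gene was Cxcl13, and the adjusted p of Slc44a3 was 0.0628. The cause of these changes was not tested.

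The labels number the arrays 1 to 3 in each group, but same-numbered fasted and fed arrays did not deviate together (correlations of 0.01, -0.01 and 0.10 over genes), and fasted array 1 correlated best with fed array 2, so the numbers were not taken to pair the mice. With the replicate number as a block, 587 genes were called (237 higher, 350 lower), 8 of the 120 named by the rule lost their calls, and the difference between the injections gave 0 calls. No depth is recorded for arrays; levels near or under the array medians, such as those of Shcbp1, Hmmr and Ugt2b38 in fasted livers, limit what can be said of the size of a fall.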
